A study of Mus musculus with 10 samples.

Results

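The genes described here are 34 imprinted genes that lie outside the distal chromosome 7 cluster holding Igf2 and H19, compared between fetal mouse livers with and without the microRNA gene Mir483. They were taken from a list of known imprinted genes at other loci, and all 34 matched 1 row each of a count table with 55401 Ensembl genes. For 19 of them the paternal allele is listed as the expressed one, for 12 the maternal allele, and for 3 the allele depends on the transcript isoform. These assignments are textbook knowledge from any tissue, and some may not hold in liver. The sequencing did not separate the alleles, so this was not tested. Inpp5f also lies on chromosome 7, 13958499 bases from Mir483, and the Peg3 and Snrpn clusters lie further away on the same chromosome.

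All 10 livers came from female fetuses at E18.5, late in gestation. Of these, 5 were Mir483Pat-KO, which inherited a deletion of Mir483 from the father, and 5 were wild-type (WT). The deletion was made by Cre recombinase in cultured embryonic stem cells, and the mouse line came from independent clones on a C57BL/6 background. The authors describe the WT fetuses as littermates of the mutants, but neither the clone nor the litter of each fetus is given. Litter could therefore not enter the fit, and p-values measure the spread between fetuses that partly share litters. Polyadenylated RNA was sequenced, with 10831350 to 14765880 counted reads a library. The Mir483 row held 10 to 22 counts in the WT libraries and 0 in each Mir483Pat-KO library (edgeR adjusted p = 0.00133, by the Benjamini-Hochberg method over all genes tested, as for every adjusted p of a gene here). The hepatocyte markers summed to between 239565 and 268883 CPM in WT, CPM being counts scaled to a common library size, and no defining marker of liver cells was at 0.

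Imprinted genes are expressed from only 1 parental allele, and most sit in clusters under a shared control region that is methylated on 1 allele. Many act on fetal growth. As a rough scheme, paternally expressed genes such as Dlk1, Peg3 and Mest favour growth, and maternally expressed genes such as Grb10 and Igf2r restrain it. Several clusters also make long noncoding RNAs and microRNAs. Mir483 lies in an intron of Igf2, itself a paternally expressed growth factor gene, and its deletion on the paternal allele removes the expressed copy.

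The mature products of the deleted gene are shown first, since the question for every other gene is how it stood without them. Capitals mark the seed, bases 2 to 8, with which a microRNA pairs to its targets. Both sequences are from RefSeq (GRCm38.p6), on the minus strand at chr7:142654932-142654952 for miR-483-3p and chr7:142654968-142654989 for miR-483-5p.
miR-483-3p: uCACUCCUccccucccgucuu
miR-483-5p: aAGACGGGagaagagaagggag

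An annotated 3′ UTR was found for 29 of the imprinted genes, 27 of which had enough counts for the test of expression. A 7-base match to the miR-483-3p seed, AGGAGTG, occurred in the longest 3′ UTR of 5 of these 27. Over all tested genes with a 3′ UTR the share was 12.6% (1620 of 12875). The match to miR-483-5p, CCCGTCT, was found in 0 of the 27, against 3.28% (422) of the same tested genes, and in Rasgrf1, which was not tested. The windows around the 6 matches are shown because these are the positions where a seed could pair, and capitals mark the matched bases. A match is a description of the letters and was not tested as a binding site.
Copg2, miR-483-3p match: aaatgtaaAGGAGTGacaagatg
Peg10, miR-483-3p match: tcagtgttAGGAGTGaattggac
Zrsr1, miR-483-3p match: gaacaatgAGGAGTGtaactgag
Commd1, miR-483-3p match: caaatcgcAGGAGTGgcccaagg
Zdbf2, miR-483-3p match: ttgcctggAGGAGTGatggggca
Rasgrf1, miR-483-5p match: cccctactCCCGTCTgctggcag

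Of these 6 genes, Peg10 rose in the mutants (log2 fold change 0.35, adjusted p = 0.0416 with edgeR). The log2 fold changes of Copg2 (0.16), Zrsr1 (0.21), Commd1 (0.056) and Zdbf2 (0.22) did not pass the test. Rasgrf1 had too few counts to enter the test as reported.

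Across the whole set, 32 genes had enough counts for the test, and 24 of them were higher in Mir483Pat-KO than in WT. Over all 14098 genes tested, 50.9% were higher. An adjusted p below 0.05 was reached by 4 of the 32, Rian, Meg3, Peg10 and Usp29, all higher, and by none that was lower. Over all genes, 2.43% passed and were higher, 2.76% passed and were lower, and 5.19% passed in either direction. An unadjusted p below 0.05 was reached by 9 of the 32, 8 of them higher, against 22.2% of all genes in either direction. With a fold change over 1.5 also required, only Usp29 was called, where the share over all genes was 1.23%. In 3 of the 32 genes, Meg3, Rian and Inpp5f, every mutant was above every WT fetus, and the groups did not overlap in 6.6% of all genes.

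The median log2 fold change of the 32 genes was 0.11, beside 0.0042 over all genes. It was 0.051 for the 17 tested paternally expressed genes, 0.11 for the 12 maternally expressed ones and 0.17 for the 3 that depend on the isoform. The order of the parental classes turned in some settings: without WT 3 the medians were 0.11 (paternal) and 0.083 (maternal), and among the lower identification numbers in the labels 0.12 and 0.089. It also turned without Mir483Pat-KO 3 (0.111 and 0.104) and, barely, without Mir483Pat-KO 4 (0.0969 and 0.0965). With 1 library left out the maternal median ran from 0.073 to 0.16. Without WT 1 the paternal median was 0.018. Both parental classes held 2 genes that rose, Usp29 and Peg10 among the paternal ones and Meg3 and Rian among the maternal ones. All the genes of the Dlk1-Dio3 and Peg3 clusters had positive values, and the median of the 27 tested genes outside Dlk1-Dio3 was 0.050.

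**Figure D1:**
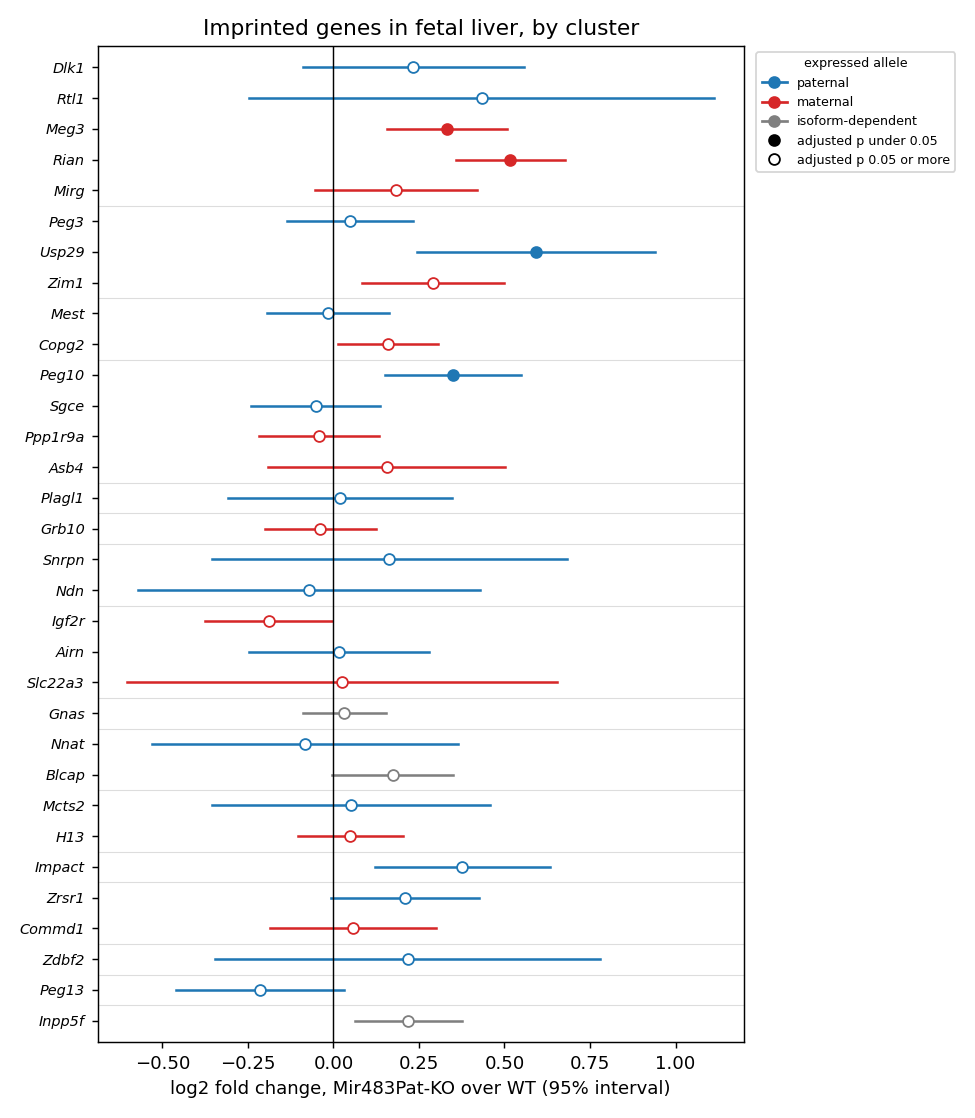
Log2 fold change of Mir483Pat-KO over WT (horizontal axis) for the 32 tested imprinted genes, grouped by cluster, with 95% intervals from the edgeR fit. Colour gives the parental allele listed as expressed, and filled points mark the 4 genes with an adjusted p below 0.05, Meg3, Rian, Usp29 and Peg10, all to the right of 0.

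Marker genes of several cell types stood higher or lower in the mutants. The 10 proliferation markers summed to between 2191 and 2586 CPM in WT and between 2724 and 2875 CPM in Mir483Pat-KO, and 5 of the 10 rose. The 11 erythroid markers summed to between 16502 and 21084 CPM in WT and to between 19326 and 27238 CPM in the mutants, and 2 rose. The 14 hepatocyte markers ranged from 239565 to 268883 CPM in WT and from 214699 to 247129 CPM in the mutants, and 3 fell. Of the non-parenchymal cells, the 12 stellate and mesenchymal markers ranged from 666 to 1247 CPM in WT and from 626 to 945 CPM in the mutants, with none past the test. The 10 endothelial markers went from between 524 and 610.0 CPM to between 453 and 552 CPM, and 1 fell. The 10 macrophage markers ranged from 744 to 926 CPM in WT and from 678 to 881 CPM in the mutants, and 2 fell. The 8 hepatoblast markers, of which Dlk1 is 1, ranged from 43414 to 51205 CPM in WT and from 45502 to 53392 CPM in the mutants, and 1 rose. In exact permutation tests over all arrangements of the samples, adjusted over 7 lists, the lowest adjusted p was 0.0556, for proliferation, erythroid and hepatocyte markers. The smallest p these arrangements can give is 0.00794, which the proliferation markers reached, and on its own such a list cannot fall below 0.05 after adjustment over 7. No marker was at 0. In whole tissue, fewer cells of a type and less RNA per cell cannot be told apart, and the part of these shifts in the imprinted genes' values was not tested.

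The Dlk1-Dio3 cluster on chromosome 12 held 2 of the 4 genes that rose, Rian and Meg3. Its control region is methylated on the paternal allele. The maternal allele makes the noncoding RNAs Meg3, Rian and Mirg, which carry small nucleolar RNAs and microRNAs, and the paternal allele makes Dlk1, a transmembrane protein related to the Notch ligands, and Rtl1, derived from a retrotransposon. All 5 had higher mean values in the mutants, and both that rose are maternal noncoding RNAs.

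Rian (ENSMUSG00000097451, GRCm38 chr12:109603940-109661716, plus strand), a noncoding RNA that hosts small nucleolar RNAs, was at 219, 264, 260.4, 236 and 209 CPM in the 5 WT livers. In the Mir483Pat-KO livers it was at 344, 362, 332, 344 and 319 CPM. The lowest mutant lay well above the highest WT fetus. The means were 238 ± 24.3 and 340.2 ± 15.8 CPM (SD, n = 5 each), and the log2 fold change was 0.52 (SE 0.0753, edgeR adjusted p = 0.00255). Rian has a GC content of 35.8%, where the median gene has 49.5%, and fold change and GC content were related across all genes (Spearman's rho -0.439, genes not being independent). With offsets for GC content and length its log2 fold change was 0.22 and no longer passed (adjusted p = 0.208). Among the fetuses with the lower identification numbers in the labels, 4 WT and 2 mutants, it was 0.52 (edgeR adjusted p = 0.0532).

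Meg3 (ENSMUSG00000021268, chr12:109541001-109571726, plus strand), the maternal noncoding RNA at the head of the cluster, was at 406, 477, 533, 539 and 539 CPM in WT. The mutants were at 599, 603, 641, 609 and 689 CPM, again with no overlap. The means were 499 ± 58.2 and 628 ± 37.9 CPM (SD, n = 5 each), and Meg3 rose by 0.33 on the log2 scale (SE 0.0830, edgeR adjusted p = 0.0310). With 1 library left out, WT 1, 2 or 3 or Mir483Pat-KO 2, 3, 4 or 5, its edgeR adjusted p was between 0.0520 and 0.0767 and its log2 fold change between 0.26 and 0.34. With the identification number range as a covariate Meg3 rose by 0.28 and no longer passed (edgeR adjusted p = 0.0505), and among the lower identification numbers its value was 0.29 (edgeR adjusted p = 0.276).

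Mirg (ENSMUSG00000097391), the noncoding host of a large microRNA cluster, was at 10.4 to 15.9 CPM in WT and 13.3 to 16.9 CPM in the mutants, and the groups overlapped (log2 fold change 0.18, adjusted p = 0.357). Dlk1 (ENSMUSG00000040856), which marks fetal hepatoblasts, was at 155, 216, 279, 279 and 267 CPM in WT. In the mutants it was at 260.1, 237, 242, 284 and 383 CPM. The spread was wide in both groups, and the difference (log2 fold change 0.23, edgeR adjusted p = 0.391) did not pass. It was 0.089 without Mir483Pat-KO 5 and 0.10 without WT 1. Rtl1 (ENSMUSG00000085925) was scarce, at 0.715 to 1.93 CPM in WT and 1.25 to 3.09 CPM in the mutants (log2 fold change 0.43, adjusted p = 0.457).

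**Figure D2:**
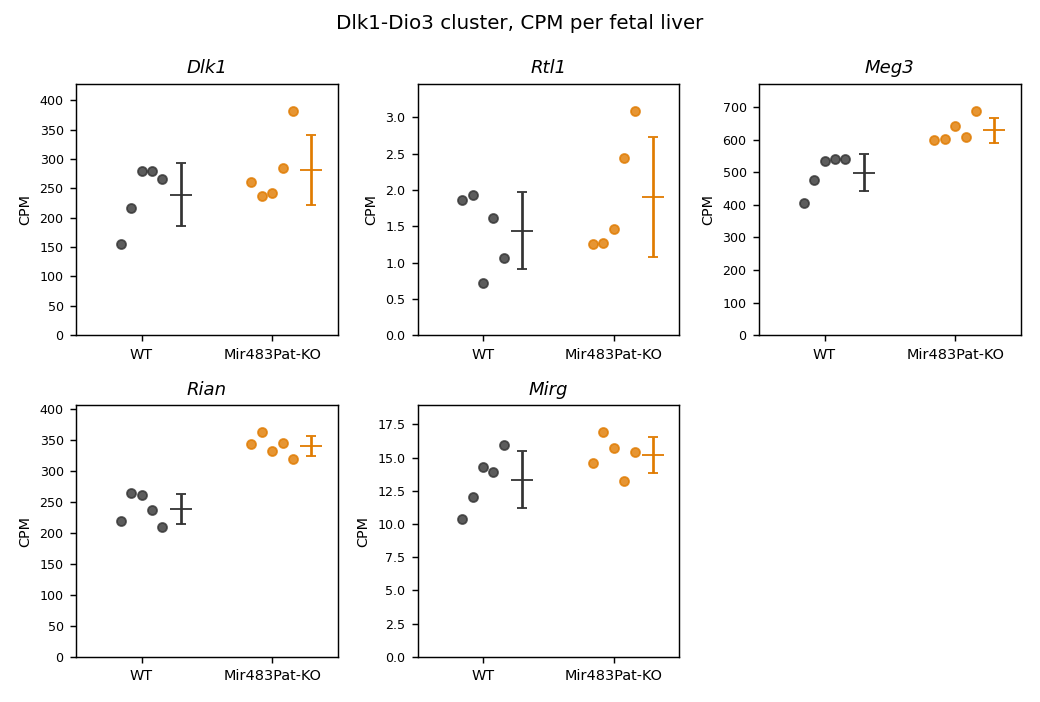
CPM of the 5 genes of the Dlk1-Dio3 cluster (vertical axis from 0) in each WT and Mir483Pat-KO fetal liver, with the mean and SD of 5 beside the points. For Meg3 (406 to 539 CPM against 599 to 689 CPM) and Rian (209 to 264 CPM against 319 to 362 CPM) the groups do not overlap, while for Dlk1, Rtl1 and Mirg they do.

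The levels of the cluster's genes were also compared from fetus to fetus within a genotype. After each genotype's mean was removed from log2 CPM, Dlk1 and Meg3 had a Pearson's r of 0.917 over the 10 fetuses (permutation p = 0.000640, adjusted p = 0.0173 over 27 pairs of neighbouring imprinted genes). Spearman's rho was 0.842 (permutation p = 0.00354, adjusted p = 0.0956), and r was 0.810 without the 2 fetuses farthest from the median Dlk1 level. Among the 6 fetuses with the lower identification numbers, r was 0.988, and the other fetuses were too few for a value. Fetuses with more Dlk1 had more Meg3 by Pearson's r, while the adjusted p of the rank correlation missed the threshold. No other pair passed. Meg3 and Mirg had an r of 0.785 (adjusted p = 0.0530 by permutation) and a rho of 0.491 (adjusted p = 0.484 by permutation). Meg3 and Rian had an r of -0.037 (adjusted p = 0.938 by permutation) and a rho of -0.236 (adjusted p = 0.966 by permutation). Among the 6 fetuses with the lower identification numbers, r was 0.583 for Meg3 and Rian and 0.545 for Dlk1 and Rian. For Rian and Mirg it was 0.605, and none of these was tested. Without the 2 fetuses farthest from the median of the first gene named, r was -0.443, -0.237 and 0.605 for the same pairs. The r of Rian with these genes thus varied with the fetuses used. The ratio of Rian to Meg3 was 0.481 ± 0.0694 in WT and 0.544 ± 0.0541 in the mutants (SD, n = 5 each), with overlapping groups.

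Rian and Meg3 also contain microRNA genes. The libraries hold polyadenylated RNA and do not measure mature microRNAs, so the sequences are shown to say what the longer RNAs carry, with the seed in capitals. All are from RefSeq (GRCm38.p6), and none of the 9 shares its seed with miR-483-3p or miR-483-5p. Rian overlaps 3 hairpins on its own strand with 6 mature forms.
miR-341-5p in Rian: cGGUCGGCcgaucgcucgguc
miR-341-3p in Rian: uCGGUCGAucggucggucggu
miR-1188-5p in Rian: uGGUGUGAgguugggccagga
miR-1188-3p in Rian: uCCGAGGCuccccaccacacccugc
miR-370-5p in Rian: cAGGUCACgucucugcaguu
miR-370-3p in Rian: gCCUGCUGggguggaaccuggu
miR-1906 in Meg3: uGCAGCAGccugaggcagggcu
miR-770-5p in Meg3: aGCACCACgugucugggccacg
miR-770-3p in Meg3: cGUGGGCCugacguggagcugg

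Mirg overlaps 14 hairpins with 26 mature forms. Rtl1 overlaps 6 hairpins with 11 mature forms on the opposite strand, which belong to the maternal transcripts, and 1 hairpin on its own strand. Mest and Usp29 overlap 1 hairpin each.

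The start windows of the 2 RNAs that rose in this cluster are shown for their CpG content. The windows run from 250 bases before to 50 bases after the RefSeq start (GRCm38.p6), and capitals mark the CpG dinucleotides, at which DNA methylation is set. The Meg3 window, the first of 2 RefSeq starts, is chr12:109540746-109541045 and holds 13 CpG. The Rian window, chr12:109603695-109603994, holds 0. The second Meg3 window, not shown, holds 1 CpG.
Meg3 start: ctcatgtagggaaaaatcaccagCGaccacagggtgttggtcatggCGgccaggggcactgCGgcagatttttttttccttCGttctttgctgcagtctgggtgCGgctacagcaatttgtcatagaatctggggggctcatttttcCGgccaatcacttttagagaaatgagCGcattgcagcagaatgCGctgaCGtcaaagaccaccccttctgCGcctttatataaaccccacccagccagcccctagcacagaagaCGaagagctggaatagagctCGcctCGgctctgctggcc
Rian start: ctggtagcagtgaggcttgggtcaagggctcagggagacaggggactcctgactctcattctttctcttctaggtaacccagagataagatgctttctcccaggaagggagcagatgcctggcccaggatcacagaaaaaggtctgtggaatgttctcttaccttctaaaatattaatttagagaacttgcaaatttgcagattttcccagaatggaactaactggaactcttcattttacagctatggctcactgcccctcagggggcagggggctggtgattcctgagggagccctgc

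RefSeq start windows of 29 of the genes were used, 43 windows in all, with a median of 15 CpG, against 7 over all windows of the same length. Windows on chromosome 18, where Impact lies, were left out of the 43 and kept among all windows. The letters TGCCGC, the core of the motif bound by ZFP57, a protein that keeps methylation at imprinted control regions, were searched on both strands. They occurred in at least 1 window of 11 of the 29 genes, and in 13.1% of all 27025 genes. By window it was 12 of the 43, against 11.6% of all 32851 windows. The motif itself holds a CpG, of which these windows had more at the median, and the part of that in the difference was not tested. The first Meg3 window held 1 match, and the second Meg3 window and the Rian window held 0. Methylation was not measured in these libraries.

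The Peg3 cluster on the proximal part of chromosome 7 held the largest fold change that passed the test. Usp29 (ENSMUSG00000051527, chr7:6730578-6967219, plus strand), which codes for a ubiquitin-specific protease, was at 4.79, 3.94, 5.79, 4.93 and 3.38 CPM in WT. In the mutants it was at 5.62, 5.71, 8.20, 7.04 and 7.83 CPM, and 3 of the 5 lay above every WT fetus. The means were 4.57 ± 0.934 and 6.88 ± 1.18 CPM (SD, n = 5 each), the fold change was 1.51, and the log2 fold change was 0.59 (SE 0.165, edgeR adjusted p = 0.0475). It rested on 47 to 119 counts a library. Zim3, which overlaps 14.3% of its exonic bases on the opposite strand, was at 0 in every library.

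The call of Usp29 was close to the threshold. With 1 library left out, WT 1, 2, 4 or 5 or Mir483Pat-KO 2, 3, 4 or 5, its adjusted p was between 0.0562 and 0.115 and its log2 fold change between 0.50 and 0.64. Among the fetuses with the lower identification numbers its log2 fold change was 0.21 (edgeR adjusted p = 0.673). It also missed the threshold with the range as a covariate (0.55, edgeR adjusted p = 0.0813) and with the GC and length offsets (0.52, edgeR adjusted p = 0.0732).

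Peg3 (ENSMUSG00000002265), a zinc finger protein whose first RefSeq start lies 164 bases from that of Usp29 on the other strand, was at 442, 591, 576, 479.5 and 486 CPM in WT. In the mutants it was at 531, 519, 603, 507 and 504 CPM, within the WT range but for the highest. Its log2 fold change was 0.049 (SE 0.0865, edgeR adjusted p = 0.785). The difference between the changes of Usp29 and Peg3 was not tested. The ratio of Usp29 to Peg3 was 0.00896 ± 0.00199 in WT and 0.0129 ± 0.00208 in the mutants (SD, n = 5 each), and the groups overlapped.

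Zim1 (ENSMUSG00000002266), the maternally expressed zinc finger gene of the cluster, was at 39.3, 53.2, 53.9, 46.4 and 42.8 CPM in WT. In the mutants it was at 49.5, 61.6, 65.6, 58.9 and 52.7 CPM. Here 3 mutants lay above every WT fetus, and the log2 fold change of 0.29 (SE 0.0978, edgeR adjusted p = 0.0920) did not pass. It passed in 2 of 19 alternatives, with the replicate number as a block (adjusted p = 0.0101 with edgeR) and with no filter on low counts (adjusted p = 0.0308), and was 0.19 with the GC and length offsets (adjusted p = 0.226). Peg3 and Zim1 had an r of 0.814 over the 10 fetuses (adjusted p = 0.0530 by permutation) and a rho of 0.721 (adjusted p = 0.224 by permutation). Peg3 and Usp29 had an r of 0.184 (adjusted p = 0.741 by permutation) and a rho of 0.042 (adjusted p = 0.984 by permutation).

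In the Peg10-Sgce cluster on chromosome 6, Peg10 rose, and its neighbour Sgce did not pass the test. Peg10 (ENSMUSG00000092035, chr6:4747306-4760517, plus strand), a retrotransposon-derived gene needed for the placenta, was at 30.1, 31.3, 38.5, 30.3 and 31.9 CPM in WT. In the mutants it was at 43.2, 45.2, 34.6, 37.8 and 45.9 CPM. The groups overlapped only through WT 3, which was far above the other WT livers. The means were 32.4 ± 3.46 and 41.4 ± 4.93 CPM (SD, n = 5 each), and Peg10 rose by 0.35 on the log2 scale (SE 0.0938, edgeR adjusted p = 0.0416). With 1 library left out, WT 1, 2, 4 or 5 or Mir483Pat-KO 1, 2, 4 or 5, its edgeR adjusted p was between 0.0605 and 0.107, with log2 fold changes between 0.30 and 0.37. Among the lower identification numbers it was 0.44 (edgeR adjusted p = 0.144).

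Sgce (ENSMUSG00000004631), which codes for epsilon-sarcoglycan and starts 99 bases from the start of Peg10 on the opposite strand, was at 23.7 to 29.8 CPM in WT and 22.5 to 29.6 CPM in the mutants (log2 fold change -0.051, adjusted p = 0.778). Over the 19 alternatives the value of Sgce ran from -0.27, with the GC and length offsets, to -0.012, without Mir483Pat-KO 2, and passed in none. The ratio of Peg10 to Sgce was 1.21 ± 0.235 in WT and 1.60 ± 0.333 in the mutants (SD, n = 5 each), with overlapping groups. Within a genotype the relation of their levels did not pass the adjusted test over the 10 fetuses (r -0.783, adjusted p = 0.0530 by permutation). Spearman's rho was -0.648 (adjusted p = 0.334 by permutation), and r was -0.559 without the 2 most distant fetuses. Ppp1r9a (ENSMUSG00000032827), which codes for neurabin, was at 47.6 ± 4.96 CPM in WT and 46.3 ± 4.01 CPM in the mutants (SD, n = 5 each, log2 fold change -0.043, SE 0.0831, edgeR adjusted p = 0.805). Asb4, a SOCS box protein, was at 4.09 to 7.08 CPM in WT and 4.92 to 6.05 CPM in the mutants (log2 fold change 0.16, adjusted p = 0.616, and 0.33 without WT 3).

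**Figure D3:**
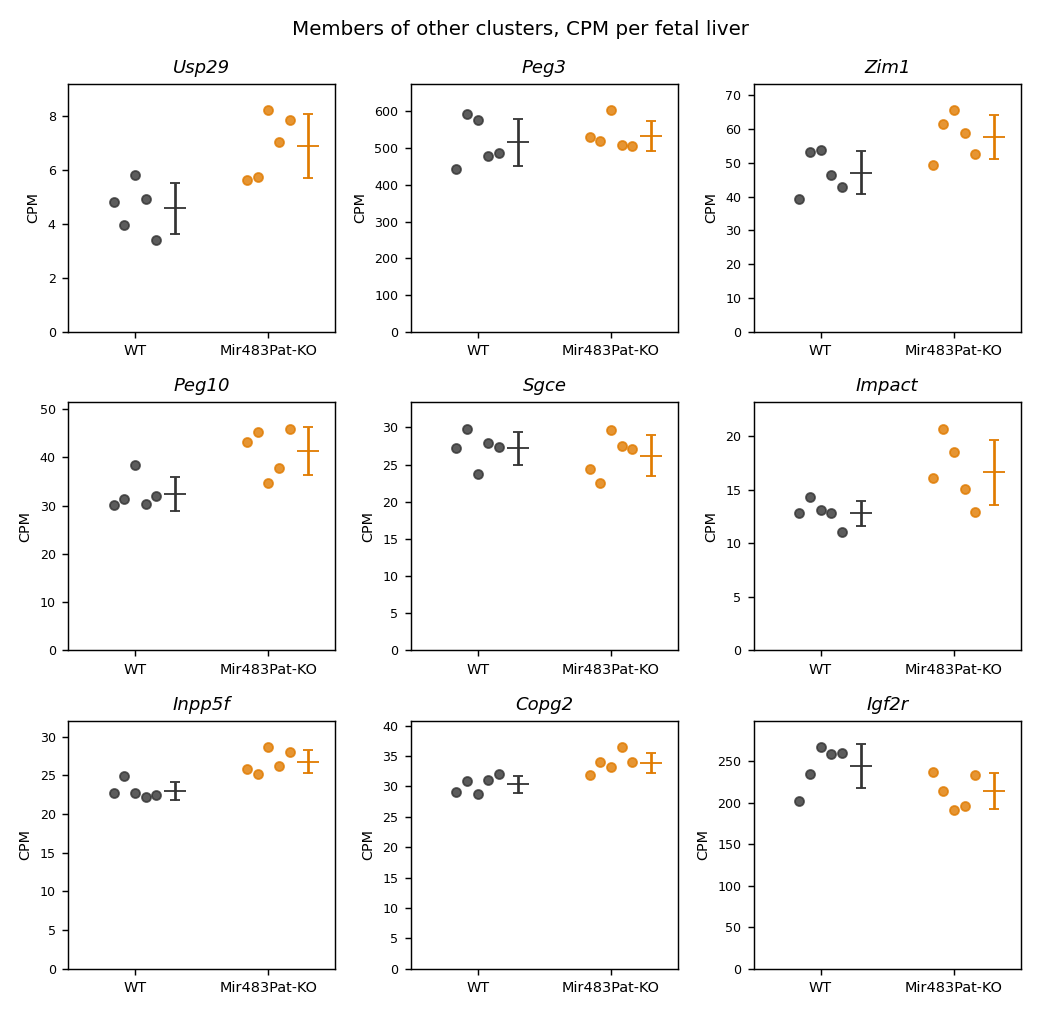
CPM of 9 imprinted genes of other clusters (vertical axes from 0) in each WT and Mir483Pat-KO fetal liver, with the mean and SD of 5 beside the points. Usp29 and Peg10 rose, the groups of Peg3 and Sgce, which start beside them, overlap over most of their range, and for Inpp5f alone all mutants (25.1 to 28.6 CPM) lie above all WT livers (22.2 to 25.0 CPM).

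Impact, Inpp5f and Copg2 were higher in the mutants with an unadjusted p below 0.05 and did not pass the adjusted test. Impact (ENSMUSG00000024423), which restrains the amino acid sensing kinase GCN2, was at 11.1 to 14.3 CPM in WT (mean 12.8 ± 1.17, SD, n = 5) and at 12.9 to 20.7 CPM in the mutants (mean 16.7 ± 3.04, SD, n = 5). In 4 of 5 mutants it was above every WT fetus, and its log2 fold change was 0.38 (SE 0.120, edgeR adjusted p = 0.0788). It passed with the replicate block (adjusted p = 0.0241), with the identification number range as a covariate (adjusted p = 0.0243), with no filter on low counts (adjusted p = 0.0326) and without Mir483Pat-KO 5 (adjusted p = 0.0380). In the other 15 alternatives it did not, with values of 0.28 without Mir483Pat-KO 2 (edgeR adjusted p = 0.209), 0.26 with the GC and length offsets (adjusted p = 0.145) and 0.47 in the lower range (adjusted p = 0.172).

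Inpp5f (ENSMUSG00000042105), a phosphoinositide phosphatase of which 1 isoform is imprinted in the brain, was at 22.7, 25.0, 22.7, 22.2 and 22.5 CPM in WT. The mutants were at 25.8, 25.1, 28.6, 26.2 and 28.0 CPM. The groups did not overlap, although the lowest mutant and the highest WT fetus were almost equal, and the log2 fold change was 0.22 (SE 0.0738, edgeR adjusted p = 0.0923). Copg2 (ENSMUSG00000025607), a subunit of the COPI vesicle coat, was at 30.3 ± 1.42 CPM in WT and 33.9 ± 1.65 CPM in the mutants (SD, n = 5 each, log2 fold change 0.16, SE 0.0691, edgeR adjusted p = 0.185). Its cluster partner Mest (ENSMUSG00000051855), an enzyme of the alpha/beta hydrolase fold named for the mesoderm, was at 173 ± 22.8 CPM in WT and 171 ± 10.1 CPM in the mutants (SD, n = 5 each, log2 fold change -0.015, SE 0.0846, edgeR adjusted p = 0.939). These genes overlap on opposite strands over 17.8% of the exonic bases of Copg2, and whether the counting used the strand is not stated.

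In the Igf2r cluster on chromosome 17 no gene passed the test. Igf2r (ENSMUSG00000023830), the receptor that binds IGF2 and carries it to the lysosome, was at 202, 235, 267, 259 and 259.5 CPM in WT and at 237, 214, 191, 196 and 234 CPM in the mutants. It was the only gene of the set with a lower value and an unadjusted p below 0.05, and it did not pass (log2 fold change -0.19, SE 0.0873, edgeR adjusted p = 0.214). Airn, the paternal antisense RNA that silences Igf2r, was at 8.39 to 9.78 CPM in WT and 7.04 to 11.1 CPM in the mutants (log2 fold change 0.017, adjusted p = 0.954). Slc22a3, an organic cation transporter of the same cluster, differed by 0.026 on the log2 scale (adjusted p = 0.971) and ranged from 2.57 to 8.21 CPM over all livers.

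Grb10 (ENSMUSG00000020176), an adaptor that dampens insulin and IGF1 receptor signals, was at 1816 ± 173 CPM in WT and 1769 ± 100.3 CPM in the mutants (SD, n = 5 each, log2 fold change -0.038). The interval of that log2 difference ran from -0.20 to 0.13. Gnas, the stimulatory G protein subunit, was at 415 ± 11.5 and 424 ± 3.70 CPM (SD, n = 5 each), with a log2 fold change of 0.032 and an interval from -0.089 to 0.15, the narrowest of the set. With the GC and length offsets the value of Gnas was 0.15 (edgeR adjusted p = 0.167). Reads of its allele-specific first exons were not told apart, and 22.0% of its exonic bases are overlapped by opposite-strand genes, Nespas among them, with the strand setting of the counting not stated. Plagl1, a zinc finger transcription factor, was at 86.4 ± 22.9 CPM in WT and 87.5 ± 14.1 CPM in the mutants (SD, n = 5 each, log2 fold change 0.019).

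The remaining genes did not pass the test. Blcap, which shares its locus with Nnat, was at 15.5 ± 0.902 and 17.5 ± 1.19 CPM in WT and mutants (SD, n = 5 each, log2 fold change 0.17, SE 0.0833, edgeR adjusted p = 0.233). Nnat, a small membrane proteolipid best known from neurons, was scarce at 2.75 to 6.70 CPM over all livers (log2 fold change -0.083). Zrsr1, a splicing factor gene inside an intron of Commd1, was at 17.9 ± 1.25 and 20.7 ± 3.0 CPM in WT and mutants (SD, n = 5 each, log2 fold change 0.21, SE 0.102, edgeR adjusted p = 0.240). The value of Zrsr1 ran from 0.14 to 0.27 with 1 library left out and was -0.036 among the lower identification numbers. Commd1, which takes part in copper handling, had a log2 fold change of 0.056.

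H13, the signal peptide peptidase, was at 78.0 ± 4.94 and 80.8 ± 6.94 CPM in WT and mutants (SD, n = 5 each, log2 fold change 0.050, SE 0.0722, edgeR adjusted p = 0.732). Its intronic retrogene Mcts2 had a log2 fold change of 0.051. In the Snrpn cluster, the locus of Prader-Willi syndrome in humans, Ndn was at 3.84 ± 1.09 and 3.65 ± 1.22 CPM in WT and mutants (SD, n = 5 each, log2 fold change -0.072, SE 0.236, edgeR adjusted p = 0.893), and Snrpn itself had a log2 fold change of 0.16 from 11 to 23 counts a library (0.037 without WT 4 and 0.26 without WT 3). Of the exonic bases of Snrpn, 27.3% are shared with same-strand genes, Snurf among them. Zdbf2 had a log2 fold change of 0.22 and the noncoding RNA Peg13 one of -0.21 (adjusted p = 0.291).

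Magel2 and Rasgrf1 did not pass the filter on low counts. Magel2, of the Snrpn cluster, held 0 to 3 counts a library. Rasgrf1, a Ras exchange factor imprinted in the brain, held 0 to 6 counts, and its counts were 1, 0, 1, 0 and 1 in WT and 2, 6, 1, 2 and 2 in the mutants. At this depth 3 counts amount to 0.197 to 0.271 CPM. With no filter on low counts the unadjusted p was 0.0370 for Rasgrf1 (edgeR adjusted p = 0.290) and 0.996 for Magel2. In the mutants Rasgrf1 was above 3 counts in Mir483Pat-KO 2 alone, so no fold change is given.

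The set spanned a wide range of levels in WT liver. Per kilobase of exonic sequence, Grb10 was highest at 199.8 ± 19 CPM per kb (SD, n = 5), apart from all others. It was followed by Mest at 43.8, Dlk1 at 42.3, Peg3 at 38.7 and Gnas at 37.1 CPM per kb, whose WT ranges overlapped each with the next. Meg3 at 27.6 and Igf2r at 26.3 CPM per kb came after, then Rian at 13, Plagl1 at 11 and H13 at 8.78 CPM per kb. Of the genes that rose, Peg10 was in the middle at 4.87 CPM per kb and Usp29 near the bottom at 0.253 CPM per kb. At the lower end were Rtl1 at 0.226, Zdbf2 at 0.165, Magel2 at 0.0190 and Rasgrf1 at 0.0042 CPM per kb. In this order, 27 of the 33 neighbours overlapped in their WT ranges, and breaks lay only below Grb10, Gnas, Igf2r, H13, Snrpn and Zdbf2. Sequences that several genes share, and isoforms shorter than the union of exons, affect these levels.

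**Figure D4:**
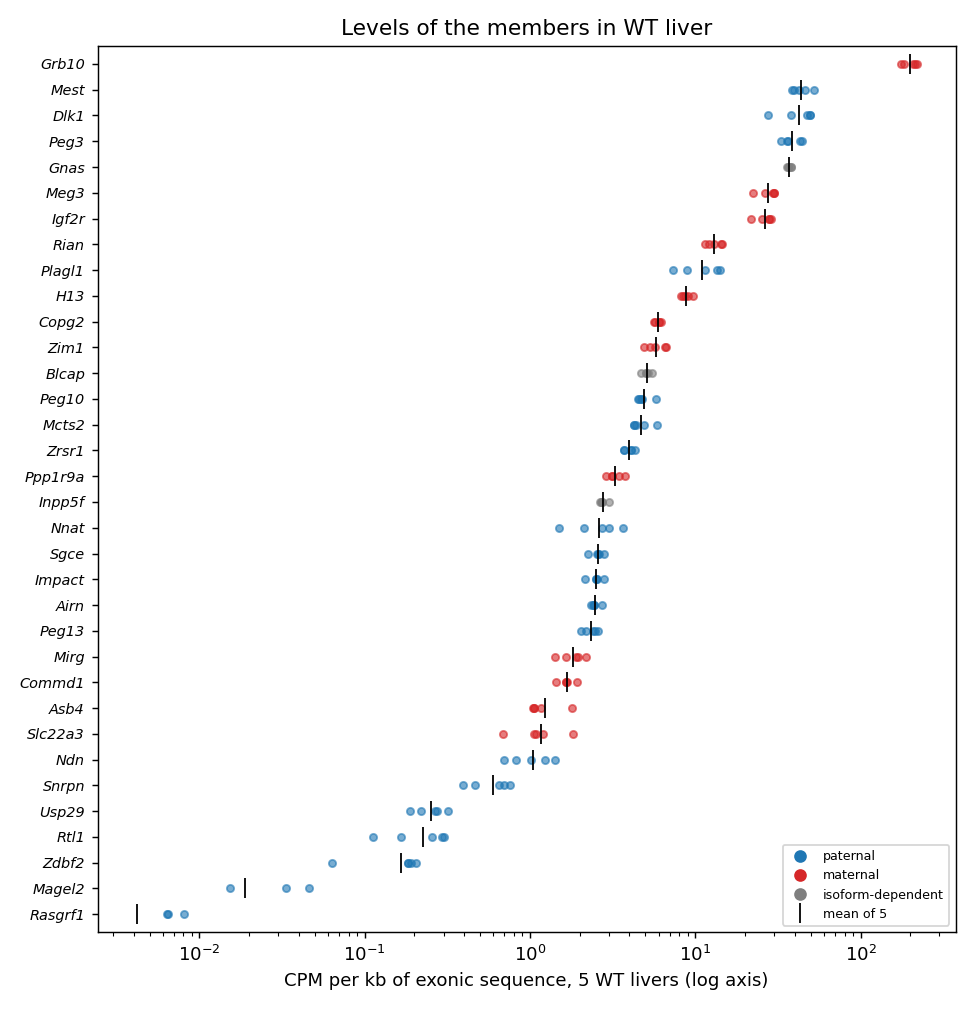
CPM per kilobase of exonic sequence (log axis) of the 34 imprinted genes in the 5 WT livers, in order of the mean (vertical tick), with colour for the allele listed as expressed. Grb10, at 199.8 CPM per kb, stands apart at the top, and libraries with 0 counts of Magel2 or Rasgrf1 are not drawn because the axis is logarithmic.

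The spread between fetuses also differed among the genes. Among the tested genes, the coefficient of variation in WT ran from 2.8% for Gnas to 36.9% for Rtl1, and in the mutants from 0.9% for Gnas to 48.5% for Slc22a3. Counting error alone gave 1.4% for Gnas and 23.6% for Rtl1 in WT. For Dlk1, Meg3 and Rian counting error was 1.8%, 1.2% and 1.8%, against measured values of 22.5%, 11.7% and 10.2% in WT. For Snrpn the measured value was 26.6% and counting error 24.5%. In the mutants the value of Gnas lay below its counting error of 1.3%.

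The genes of the distal chromosome 7 cluster and the other imprinted genes give a frame for these counts. Of 15 imprinted genes near Mir483, 12 were tested, 8 were higher and 4 lower, and 0 passed with edgeR, 4 having an unadjusted p below 0.05. Their median log2 fold change was 0.025. Of 41 further imprinted genes, 27 were tested, 13 higher and 14 lower, with a median of -0.0051. The 1 that passed was Bbx, which rose from 19.6 ± 1.0 to 23.6 ± 0.463 CPM (SD, n = 5 each, log2 fold change 0.27, edgeR adjusted p = 0.0426).

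Of the 4 calls, that of Rian held in most settings. Rian passed in 17 of 19 alternative analyses, including all 10 in which 1 library was left out, with log2 fold changes from 0.22 to 0.58. Meg3 and Peg10 passed in 10 of the 19 each, and Usp29 in 8. All 4 had a positive value in every alternative, and in none of the 19 was any gene of the set lower and past the test.

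**Figure D5:**
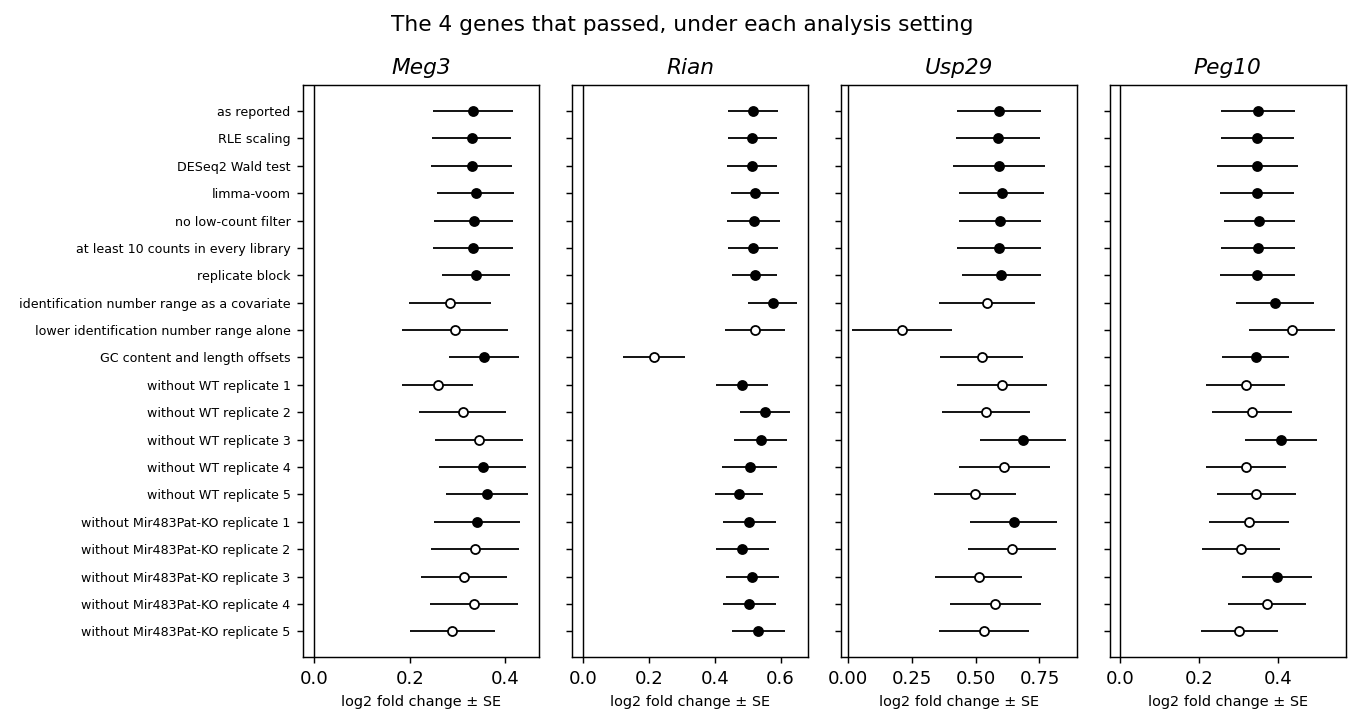
Log2 fold change ± SE (horizontal axes) of the 4 genes that passed, in the analysis as reported and in 19 alternatives (rows), with filled points where the adjusted p is below 0.05. Rian is filled in 17 of the 19 alternatives and open only with the lower identification numbers alone and with the GC and length offsets, where its value is 0.22. The other 3 genes turn open in many of the settings that leave out 1 library.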

How the data were processed

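RNA-seq libraries (TruSeq, polyadenylated RNA) of 5 WT and 5 Mir483Pat-KO livers were used. The authors deposited 1 table of raw counts per Ensembl gene, made with STAR on GRCm38. The strand setting and the rule for reads with several positions are not given in the sources used here. Counts were tested with the quasi-likelihood F-test of edgeR 4.0.16 (R 4.3.3, limma 3.58.1) after filterByExpr and TMM scaling, which kept 14098 genes. P-values were adjusted by the Benjamini-Hochberg method over these genes. CPM used TMM library sizes. GENCODE M21 (GRCm38) gave gene positions, exons and 3′ UTRs, another release than the authors' Ensembl 100 annotation, and sequences from RefSeq.

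The genes and marker lists were chosen with earlier results of these data known. Full statistics were given for genes with an unadjusted p below 0.05 and for the most abundant gene of each cluster with several genes. Correlations used log2(CPM + 0.1) and 100000 permutations. Alternatives were RLE scaling, DESeq2 1.42.0, limma-voom, other count filters (none, or 10 counts in every library), a replicate block, the identification number range in the labels (split at 450) as a covariate or its lower range alone, GC and length offsets, and leaving out each library. The fit was tested on simulated data for this comparison over 14098 genes, where 96.5% of 200 genes changed 2-fold were recovered and 3.5% of calls were false. The largest fold change in the set was 1.51, for Usp29, so this recovery does not describe changes of the size seen here. Each of the 20 replicate pairs differed by more than sampling noise (chi-square over its degrees of freedom at least 4.86).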

Additional observations from a re-analysis of the deposited data

Results flagged for a closer look

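In each genotype, every gene was checked for 1 liver far from the other 4, by the gap to its nearest neighbour over the range of the group (critical value 0.71 for 5 samples). Of 68 groups, 6 exceeded it, and chance gives about 1 in 20. Peg3 was at 603 CPM in Mir483Pat-KO 3, where the next mutant was at 531 CPM. Without that library the log2 fold change of Peg3 was -0.0095. In WT 3, Peg10 was at 38.5 CPM with the next WT liver at 31.9 CPM, and without WT 3 the log2 fold change of Peg10 was 0.41 (edgeR adjusted p = 0.0263). The same liver held 7.08 CPM of Asb4, from the same cluster, with the next WT liver at 4.61 CPM, and without it the log2 fold change of Asb4 went from 0.16 to 0.33. Rasgrf1 was at 0.476 CPM in Mir483Pat-KO 2, which is 6 counts, against 0.180 CPM in the next. Zdbf2 was at 0.799 CPM in WT 1, where the next lowest WT liver was at 2.31 CPM, and without WT 1 its log2 fold change went from 0.22 to 0.018. Inpp5f was at 25.0 CPM in WT 2, with the next WT liver at 22.7 CPM. The causes were not tested.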

How the results depend on the processing

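The number of genes of the set that passed the adjusted p was 4 as reported, 3 with the identification number range as a covariate (Meg3 and Usp29 dropped out and Impact entered), 0 in the lower range alone, where 23 genes of 14494 passed in all, 2 with GC and length offsets and 6 with no filter on low counts. With 1 library left out it was between 1 and 3. The number called at a fold change over 1.5 was 1 as reported, 0 with the identification number range as a covariate, in the lower range alone and with the GC and length offsets, and 0 or 1 with 1 library left out. With the replicate number as a block, 6 genes passed, Zim1 and Impact in addition, 1 was called, and 1338 of all genes passed against 731 as reported. Same-numbered samples correlated between -0.0496 and 0.261, with a mean of 0.087 against -0.022 for differently numbered ones. Whether the numbers pair the samples cannot be told from so few values. Of the 32 genes, 14 changed direction in at least 1 of the 19 alternatives, and none of the 14 passed in any. It changed for Mest (0.052 with the range covariate, 0.0050 in the lower range, -0.059 to 0.047 with 1 library left out), Ndn (0.13, 0.19, and -0.27 to 0.057) and Zrsr1 (-0.036 in the lower range). With 1 library left out it also changed for Peg3 (-0.0095 to 0.098), Ppp1r9a (-0.092 to 0.00038) and H13 (-0.011 to 0.080). Over the 19 alternatives the other 8 ranged from -0.27 to 0.56 (Rtl1), -0.10 to 0.15 (Plagl1), -0.088 to 0.020 (Grb10), -0.078 to 0.16 (Airn), -0.19 to 0.23 (Slc22a3), -0.46 to 0.061 (Nnat), -0.058 to 0.30 (Mcts2) and -0.070 to 0.10 (Commd1). Among the genes that kept their direction without passing in any of the 19 were Dlk1 (0.089 to 0.31), Mirg (0.10 to 0.31), Asb4 (0.042 to 0.33), Snrpn (0.037 to 0.26), Gnas (0.015 to 0.15) and Sgce (-0.27 to -0.012). Zdbf2 (0.018 to 0.31) did the same in the 18 alternatives it entered. The median of the set stayed positive in the 19 alternatives, was 0.056 with at least 10 counts in every library, and was 0.050 without the Dlk1-Dio3 cluster. The paternal median ranged from 0.018 to 0.11 with 1 library left out and was 0.14 with the range covariate. The causes were not tested. The identification number ranges hold 4 WT and 2 mutants, and 1 WT and 3 mutants, so the range is partly confounded with genotype. Magel2 and Rasgrf1 entered the test only without the low-count filter, where neither passed.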
